A study of Mus musculus with 2 samples.

Results

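The NOD-like receptors and inflammasome genes analysed here were 10 listed mouse symbols, matched to the Ensembl identifiers of the count tables through GENCODE. 8 of them, Nlrp1a, Nlrp1b, Nlrp3, Nlrp10, Nlrp12, Nod1, Pycard and Casp1, matched a row in the count tables of both libraries, which hold 24223 genes. Nlrp6 and Nod2 were not analysed here. The libraries were made from CT26 cells, a mouse colon tumor line of BALB/c origin. 1 library came from cells given the DNA methyltransferase inhibitor decitabine (DAC): medium with 1 μM drug was renewed every 24 h, 3 times in all, and a drug-free period of 24 h followed. The other came from control cells (Ctrl), handled alike but never given DAC. The study asked how low-dose DAC changes the expression of genes in tumor cells, including immune genes. With 1 library per group, no difference has a replicate check, and no p-value is given.

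NOD-like receptors (NLRs) are cytosolic proteins that sense microbial products and cell damage. Some of them, such as NLRP3 and NLRP1, recruit the adaptor ASC, encoded by Pycard, or bind caspase-1 directly, and so form an inflammasome in which caspase-1 is activated. Caspase-1 then cleaves the precursors of interleukin-1β and interleukin-18 and the pore-forming protein gasdermin D, and the cell may die by pyroptosis. NOD1 and NOD2 take another route: they sense fragments of bacterial peptidoglycan and signal through the kinase RIPK2 to NF-κB. Inflammasome genes are best known from macrophages, and several are also used by the epithelium of the gut.

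Total counts were 35163420 for DAC and 34221886 for Ctrl. Values are given as counts and as CPM, counts per 1000000 after scaling with edgeR's TMM factors, and 1 CPM equaled 37.6 counts in DAC and 32.0 in Ctrl. A gene was called higher or lower when it reached 1 CPM in either library, its CPM differed at least 2-fold between DAC and Ctrl, and the 95% interval of that ratio (exact, Clopper-Pearson) did not reach 1. Intervals after a ratio or a level are counting intervals and cover counting error only. A count of 0 was set against 3 counts, which equal 0.0798 CPM in DAC and 0.0937 CPM in Ctrl. Gapdh, a glycolytic enzyme gene, had a ratio of 0.997 (0.984 to 1.01). In bulk RNA, fewer cells with a transcript and less of it per cell cannot be told apart.

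Expression of Nlrp1a, Nlrp3, Nod1, Pycard and Casp1 was higher in the DAC library, and that of Nlrp12 was lower. Over all 13545 genes at 1 CPM or more in either library, 10.8% were called higher and 5.29% lower. Of the 8 genes with a row, 7 had a ratio above 1, with a median log2 ratio of 2.02. Over all 24223 genes, equally unfiltered, 45.1% had a ratio above 1, and the median was -0.11. Genes with 0 counts in 1 library and 3 or fewer in the other were set at 3 in both, a ratio of 0.852. They count as below 1 in either direction, so the share and median over all genes are no like baseline for the 8. The level of a gene in 1 library can decide whether it is tested at all, and this was so for several of these genes. Nlrp1b, Nlrp3 and Casp1 reached 1 CPM in both libraries, and 2 of these 3 were called higher, against 5.87% of the 12258 genes that did so. Nlrp1a, Nod1 and Pycard reached 1 CPM in DAC only, a class of 948 genes of which 78.9% were called higher. Nlrp12 reached it in Ctrl only, as did 339 genes of which 64.3% were called lower, and Nlrp10 reached it in neither library. With a minimum of 5 CPM, or a difference of over 100 normalized counts, Nlrp3 and Casp1 were the 2 genes still called, since the other calls rest on fewer counts.

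**Figure D1:**
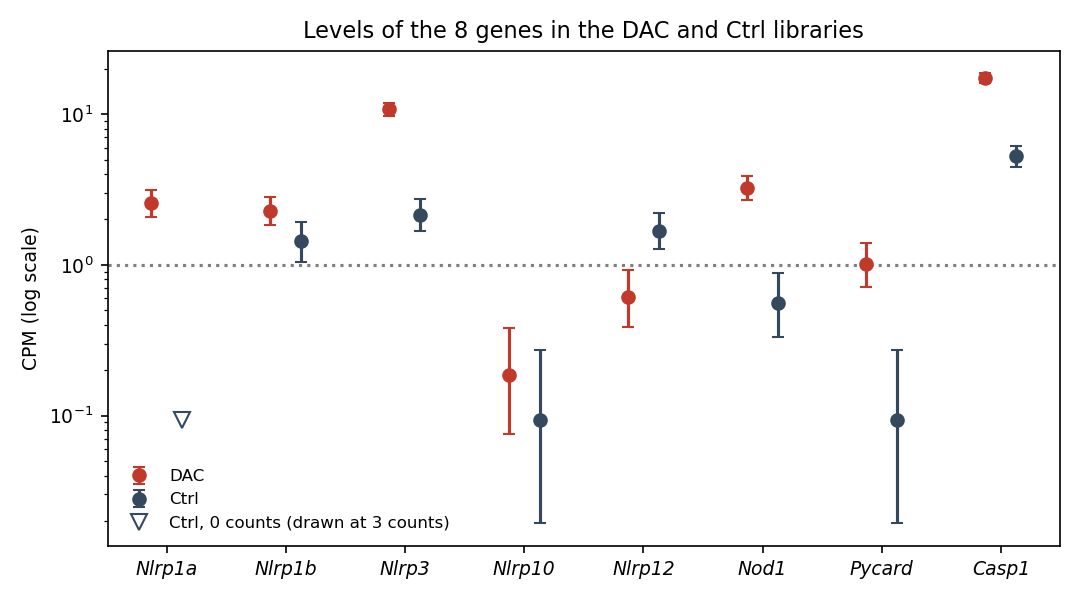
CPM of each gene (y axis, log scale) in the DAC library (red) and the Ctrl library (dark gray), with exact Poisson 95% counting intervals as bars and the filter of 1 CPM as a dotted line. Intervals of the libraries are apart for Nlrp1a, Nlrp3, Nlrp12, Nod1, Pycard and Casp1, and they overlap for Nlrp1b and Nlrp10. The open triangle is Nlrp1a in Ctrl, at 0 counts and drawn at the level of 3 counts, 0.0937 CPM.

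Nlrp3 encodes the sensor of the best-studied inflammasome, which responds to potassium loss, crystals and other signs of damage. It had 404 counts (10.8 CPM, 9.73 to 11.9) in the DAC library and 69 counts (2.15 CPM, 1.68 to 2.73) in the Ctrl library. The ratio was 4.99 (3.86 to 6.54), and its call was the only one among these genes that held under every one of 13 alternative settings. The gene lies on chromosome 11 of GRCm38 from 59541568 to 59566956 on the plus strand. None of the 50-base stretches of its longest transcript occurs in a transcript of another gene. The neighboring gene Zkscan17, 14817 bases away, had 1617 counts in DAC and 1074 in Ctrl, a ratio of 1.28 (1.19 to 1.39). The olfactory receptor gene Olfr222, 3299 bases downstream, had 5 counts in DAC and 0 in Ctrl. The 250 bases before the outermost Nlrp3 start site in RefSeq (GRCm38.p6) are shown because Nlrp3 kept its call throughout. They cover chr11:59541319-59541568, read 5′ to 3′ on the plus strand, with each CG dinucleotide, the site that DNA methyltransferases modify, in capitals.
Nlrp3: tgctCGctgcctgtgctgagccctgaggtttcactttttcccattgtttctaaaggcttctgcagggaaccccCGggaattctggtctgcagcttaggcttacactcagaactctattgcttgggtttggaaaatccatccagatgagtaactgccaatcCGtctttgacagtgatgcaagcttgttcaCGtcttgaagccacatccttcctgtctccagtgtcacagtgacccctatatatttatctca

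Nlrp1a and Nlrp1b are neighboring copies that correspond to the single human NLRP1 gene, and both of their proteins can form inflammasomes. The Nlrp1b protein of some mouse strains is cleaved and activated by the lethal factor of anthrax. They lie head to tail on the minus strand of chromosome 11, Nlrp1a from 71092236 to 71144704 and Nlrp1b from 71153102 to 71230733, 8398 bases apart. Nlrp1a had 96 counts (2.55 CPM, 2.07 to 3.12) in DAC and 0 counts in Ctrl. With Ctrl set at 3 counts this is a ratio of 27.3, and the counting interval begins at 21.8 and has no upper end. The ratio was 45.5 with a prior count of 2 and 18.8 with a prior count of 5, the latter under the start of that interval. Nlrp1b had 86 counts (2.29 CPM, 1.83 to 2.83) in DAC and 46 counts (1.44 CPM, 1.05 to 1.92) in Ctrl. Its ratio was 1.59 (1.10 to 2.33), under the 2-fold rule. The interval of the Nlrp1a ratio lay wholly above that of Nlrp1b. Of the 182 counts of the pair in the DAC library, 52.7% (45.2 to 60.2, exact Clopper-Pearson) belonged to Nlrp1a, against 0 of 46 in the Ctrl library. Taken as 3 counts of 46, and not by the exact method, the 0 stands for a share of 6.52%, which is no upper bound. Only 2.28% of the 50-base stretches of Nlrp1a and 2.08% of those of Nlrp1b occur in the other copy or in the pseudogene Nlrp1c-ps. The annotation is of C57BL/6J, the locus is known to differ between mouse strains, and CT26 comes from BALB/c. The effect of such differences on the counts was not tested.

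The stretches before the start sites of the pair are shown here because they are close copies whose differences include the CG dinucleotides. Each is the 250 bases upstream of a RefSeq start site read on the minus strand, with every CG in capitals. The Nlrp1a stretch covers chr11:71144705-71144954 and the Nlrp1b stretch chr11:71230734-71230983.
Nlrp1a: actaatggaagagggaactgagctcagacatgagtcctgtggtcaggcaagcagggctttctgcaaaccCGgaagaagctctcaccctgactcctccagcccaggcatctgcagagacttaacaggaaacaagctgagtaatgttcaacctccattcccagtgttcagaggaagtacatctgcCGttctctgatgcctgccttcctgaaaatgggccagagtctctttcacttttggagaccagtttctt
Nlrp1b: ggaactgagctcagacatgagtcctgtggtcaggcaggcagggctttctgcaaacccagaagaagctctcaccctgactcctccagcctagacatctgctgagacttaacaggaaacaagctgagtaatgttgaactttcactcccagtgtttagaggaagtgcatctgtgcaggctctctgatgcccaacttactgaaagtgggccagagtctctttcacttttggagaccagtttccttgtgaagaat
A local alignment paired 235 bases of them, of which 216 (91.9%) were identical, and 3 gap bases are not part of this share. The Nlrp1a stretch holds 2 CG dinucleotides and the Nlrp1b stretch 0, and the second Nlrp1b start site that RefSeq gives also has 0 upstream. The alignment held 19 mismatches. Counted from 1 at the 5′ end of the Nlrp1a stretch, the substitutions G71A and C184G, with Nlrp1a's base first, fall in its CG dinucleotides. T186C lies just after the second CG. Just before it, the alignment used gives C183A beside the 3 gap bases, which are present in the Nlrp1b stretch only. This gap can be placed elsewhere at the same site with as many matches, and C183A depends on its place. Methylation of the CG dinucleotides of Nlrp1a was not analysed here. The stretches are of the reference genome, and the sequence of CT26 cells at this locus was not analysed either.

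Nod1 encodes the receptor for diaminopimelic acid-containing peptidoglycan, found mainly in Gram-negative bacteria. It had 122 counts (3.25 CPM, 2.70 to 3.88) in DAC and 18 counts (0.562 CPM, 0.333 to 0.888) in Ctrl, a ratio of 5.78 (3.51 to 10.1). The gene lies on the minus strand of chromosome 6 from 54923949 to 54972612. Its neighbors Ggct and Znrf2 had ratios of 1.40 (1.11 to 1.75) and 0.761 (0.713 to 0.812), under the 2-fold rule. Nod1 is shown because its outer start site was the only one of the set with more CG dinucleotides upstream than the median window. Its inner start site has 4 CG dinucleotides upstream. The 250 bases before its outer start site, chr6:54972613-54972862 on the minus strand, hold 12 of them, again in capitals.
Nod1: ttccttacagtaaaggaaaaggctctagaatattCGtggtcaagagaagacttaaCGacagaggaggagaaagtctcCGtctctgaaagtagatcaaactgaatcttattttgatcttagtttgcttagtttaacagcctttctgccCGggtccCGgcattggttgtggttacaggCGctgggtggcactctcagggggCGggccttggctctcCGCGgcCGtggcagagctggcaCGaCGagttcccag

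Casp1, the protease gene of the inflammasome, was the most abundant of the set in both libraries. It had 650 counts (17.3 CPM, 16.0 to 18.7) in DAC and 168 counts (5.25 CPM, 4.48 to 6.10) in Ctrl, a ratio of 3.30 (2.78 to 3.93). The gene lies on the plus strand of chromosome 9 from 5298517 to 5307265, at the head of a cluster of inflammatory caspases. The next gene, Casp4, which encodes the sensor of cytosolic lipopolysaccharide known in mice as caspase-11, lies 1563 bases away and had 382 counts in DAC and 368 in Ctrl, a ratio of 0.885 (0.765 to 1.02). Casp12, the third of the cluster, had 104 counts in DAC and 51 in Ctrl, a ratio of 1.74 (1.23 to 2.48). The interval of Casp1 lay above those of both neighbors.

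Pycard encodes ASC, the adaptor that joins receptor and caspase-1. It had 38 counts (1.01 CPM, 0.716 to 1.39) in DAC and 3 counts (0.0937 CPM, 0.0193 to 0.274) in Ctrl, a ratio of 10.8 (3.42 to 54.7). The gene only just reached the filter of 1 CPM, and the ratio was 7.07 with a prior count of 2 and 4.87 with a prior count of 5. It lies on the minus strand of chromosome 7 from 127989708 to 127993867, and 485 of its 3800 exon bases overlap Gm45205 on the other strand, which had 22 counts in DAC and 9 in Ctrl. The strand setting of the counting was not stated, so within these 485 bases reads of Pycard and of this partner cannot be told apart. Casp1 and Pycard, the shared parts of most inflammasomes, are shown for their few CG dinucleotides upstream, 1 in Casp1 and 2 in Pycard. The stretches are the 250 bases at chr9:5298267-5298516 on the plus strand and chr7:127993868-127994117 on the minus strand.
Casp1: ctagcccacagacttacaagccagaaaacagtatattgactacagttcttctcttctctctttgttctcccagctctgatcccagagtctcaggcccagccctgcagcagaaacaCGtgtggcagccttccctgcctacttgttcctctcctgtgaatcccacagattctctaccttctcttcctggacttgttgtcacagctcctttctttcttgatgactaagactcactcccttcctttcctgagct
Pycard: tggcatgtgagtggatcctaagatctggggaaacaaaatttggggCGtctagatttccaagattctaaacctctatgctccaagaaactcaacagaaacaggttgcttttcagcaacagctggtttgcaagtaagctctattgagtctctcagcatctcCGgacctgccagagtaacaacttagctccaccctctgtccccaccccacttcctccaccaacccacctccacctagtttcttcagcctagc

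Nlrp12, whose protein is known in mice to restrain NF-κB signaling, had 23 counts (0.612 CPM, 0.388 to 0.918) in DAC and 54 counts (1.69 CPM, 1.27 to 2.20) in Ctrl. It was 2.75-fold lower in DAC (1.66 to 4.70). The gene is on the minus strand of chromosome 7 from 3218784 to 3249740. Its 7545 exon bases overlap 7 microRNA genes of the Mir291 to Mir295 cluster, 6 of them on the other strand. These overlaps sum to 538 bases, with a base shared by several microRNA genes counted for each. The part of microRNA transcripts in its counts was not tested. Of 4 flanking genes, Myadm, 39340 bases away, was called lower, with 7340 counts in DAC and 16467 in Ctrl. The other 3 were not called, with ratios of 0.598 for Gm20553, 0.644 for AU018091 and 1.28 for Gm3375. The Nlrp12 call ended at a fold of 4 and where the interval had to lie beyond 2-fold. Nlrp10, a relative that lacks the leucine-rich repeats of other NLRs, had 7 counts in DAC and 3 in Ctrl. Its ratio of 1.99 had an interval of 0.454 to 11.9, so a difference was not detectable at this depth.

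**Figure D2:**
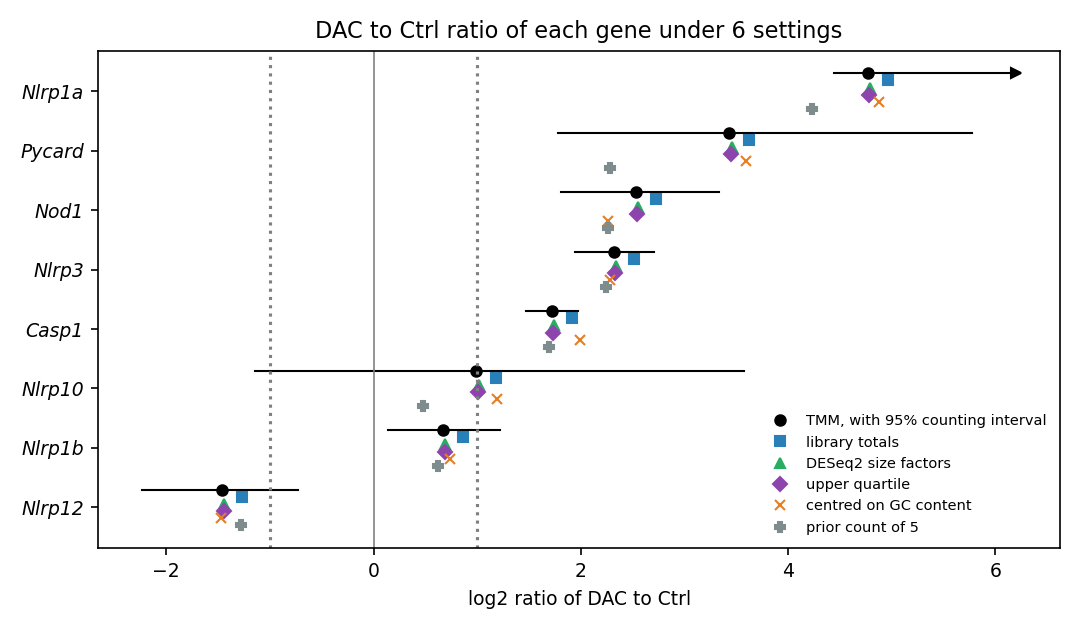
Log2 ratio of DAC to Ctrl (x axis) of each gene under TMM scaling (black, with 95% counting interval, open to the right for Nlrp1a) and under 5 other settings (colors), with 2-fold differences as dotted lines. Library totals place every gene further to the right than TMM does, and Nlrp12 stays left of 0 and the other 7 right of it in all settings drawn.

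Levels of different genes were compared per kb of exon. In the DAC library the order was Casp1 (11.6 CPM per kb), Nlrp3 (2.65), Nod1 (0.639), Nlrp1a (0.613), Nlrp1b (0.363), Pycard (0.266), Nlrp12 (0.0811) and Nlrp10 (0.0414). The counting intervals overlapped between Nod1 and Nlrp1a, between Nlrp1b and Pycard, and between Nlrp12 and Nlrp10, so these neighbors in the order cannot be told apart. In the Ctrl library the order was Casp1 (3.50 CPM per kb), Nlrp3 (0.531), Nlrp1b (0.228), Nlrp12 (0.223), Nod1 (0.111), Pycard (0.0247), Nlrp10 (0.0208) and Nlrp1a (0), and from Nlrp1b downward each interval overlapped the next. By this length, Casp1 and Nlrp3 led in both libraries. These levels use the union of all exons, 6305 bases for Nlrp1b, whose longest transcript has 4319, so its place below Nod1 and Nlrp1a in DAC is uncertain. The length of Pycard is uncertain too, since GENCODE gives transcripts of 3800 and 493 bases and a shorter one would raise its level per kb. Its place in the order is therefore uncertain, also against Nlrp3 in DAC.

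**Figure D3:**
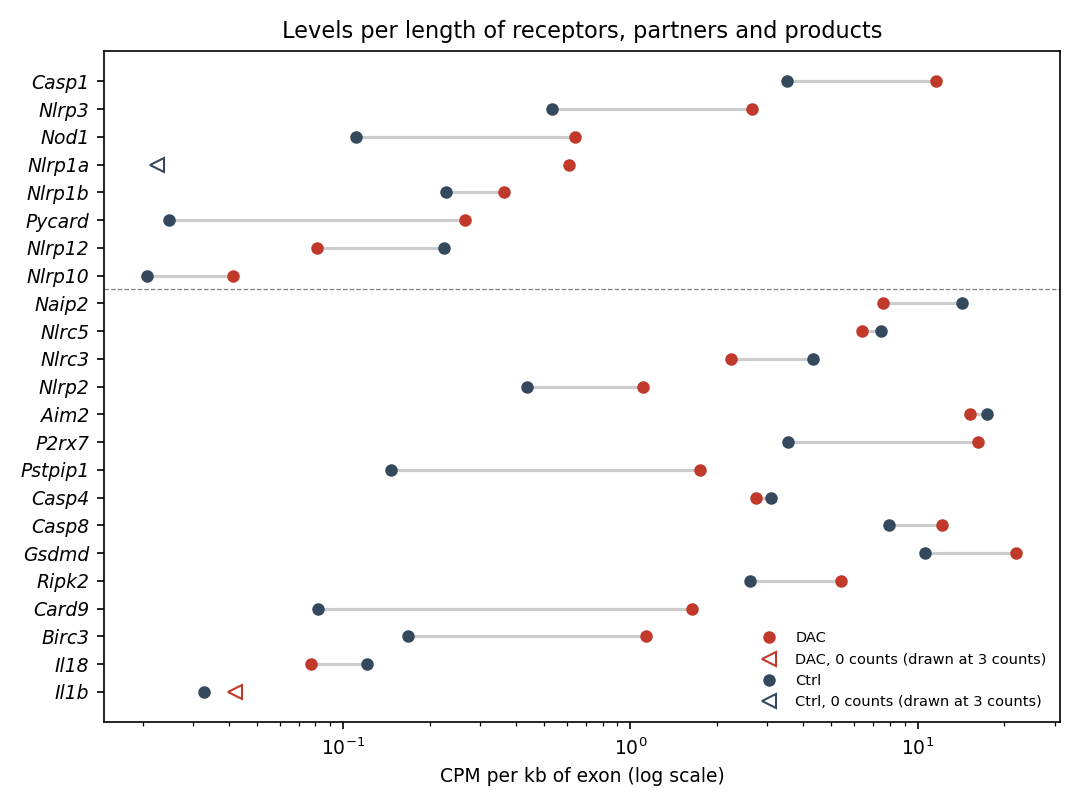
CPM per kb of exon (x axis, log scale) in the DAC library (red) and the Ctrl library (dark gray) for the 8 genes (above the dashed line) and for other NLRs, partners and products (below it). Open triangles are libraries with 0 counts, drawn at 3 counts. Casp1 leads the upper part at 11.6 in DAC and 3.50 in Ctrl. Il18 lies at 0.0774 in DAC and 0.121 in Ctrl, and Il1b at 0.0327 in Ctrl. These lie to the right of the Ctrl values of Nlrp10 (0.0208) and Pycard (0.0247).

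Of 24 other NLR genes listed, 15 had a row and 7 reached 1 CPM in either library, all of them in both. Of these, 1 was called higher and 0 lower, where 5.87% of all genes at 1 CPM in both libraries were called higher. Centring on GC content called 1 lower. The gene called higher was Nlrp2, of a branch known from oocytes and early embryos, with 146 counts in DAC and 49 in Ctrl, a ratio of 2.54 (1.83 to 3.59). This call was lost at 5 CPM, at a fold of 4, with the interval beyond 2-fold and with a difference over 100 normalized counts. Naip2, whose protein senses a rod protein of bacterial secretion systems, was the most abundant per kb, with 1383 counts in DAC and 2209 in Ctrl, a ratio of 0.534 (0.499 to 0.571), but 19.4% of its 50-base stretches occur in other genes, the other Naip copies among them. The 7 genes had a median log2 ratio of -0.23, against -0.02 over all genes tested. Nlrc4, the partner of the NAIP proteins in their inflammasome, had 3 counts in DAC and 0 in Ctrl.

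Among the cofactors and other sensors of inflammasomes, 2 of 13 tested genes were called higher and 1 lower, with a median log2 ratio of 0.17. Over all genes tested, 10.8% were called higher and 5.29% lower. Among the 12 genes of this list at 1 CPM in both libraries 1 was higher, beside 5.87% of all genes in that class. Pstpip1, which encodes a binding partner of pyrin, had 252 counts in DAC and 18 in Ctrl, a ratio of 11.9 (7.40 to 20.5), and reached 1 CPM in DAC only, the class with 78.9% called higher. P2rx7, the ATP-gated channel whose opening lets potassium leave the cell and so triggers NLRP3, had 3633 counts in DAC and 678 in Ctrl, a ratio of 4.57 (4.21 to 4.96). Txnip, which encodes a thioredoxin-binding protein, was 3.23-fold lower (3.15 to 3.31), with 9179 counts in DAC and 25274 in Ctrl, and was not called at a fold of 4. The chaperone gene Hsp90ab1 was the most abundant per kb and had a ratio of 1.79 (1.77 to 1.81). Aim2, the sensor of cytosolic DNA that also works through ASC, had 2005 counts in DAC and 1962 in Ctrl, a ratio of 0.871 (0.818 to 0.927).

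Of the effectors and products, 1 of 8 tested genes was called higher and 0 lower, with a median log2 ratio of 0.25. Over all genes tested, 10.8% were called higher and 5.29% lower. All 8 reached 1 CPM in both libraries, where 5.87% of all genes were called higher. Gsdmd, the gasdermin that caspase-1 cleaves, had 1970 counts in DAC and 808 in Ctrl, a ratio of 2.08 (1.91 to 2.26). The Gsdmd call was lost at a fold of 4 and with the interval beyond 2-fold. Hmgb1, an alarmin gene, was the most abundant per kb, and its ratio was 1.25 (1.21 to 1.29). The cytokine substrates of caspase-1 were hardly detected in either library. Il1b had 0 counts in DAC and 2 in Ctrl, and Il18 had 3 and 4. Il1a, whose protein is not a caspase-1 substrate, had 0 counts in DAC and 14 in Ctrl, 0.437 CPM and so under the filter.

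In the list for NOD1 and NOD2 signaling, 4 of 28 tested genes were called higher and 1 lower, with a median log2 ratio of 0.22, beside 10.8% higher and 5.29% lower over all genes tested. Among the 26 at 1 CPM in both libraries 2 were higher, beside 5.87% of all genes in that class. Card9 and Birc3 reached 1 CPM in DAC only, where 78.9% of genes were called higher. At a fold of 4, 2 genes of the list were higher and 0 lower. Card9, an adaptor that also serves NOD2, had 141 counts in DAC and 6 in Ctrl, a ratio of 20.03 (8.97 to 55.5). At 3.75 CPM in DAC, its call was lost at a minimum of 5 CPM. Birc3, a ubiquitin ligase of the pathway, had 214 counts in DAC and 27 in Ctrl, a ratio of 6.75 (4.51 to 10.5). Nfkbia, the inhibitor of NF-κB that is itself an NF-κB target, had a ratio of 3.39 (3.02 to 3.81). Ripk2, the kinase that NOD1 and NOD2 bind, had 571 counts in DAC and 236 in Ctrl, a ratio of 2.06 (1.77 to 2.41). The Ripk2 call was lost at a fold of 4 and with the interval beyond 2-fold. Tnfaip3, which encodes the NF-κB inhibitor A20, was 2.58-fold lower (2.43 to 2.74), with 1522 counts in DAC and 3345 in Ctrl. Arhgef2, the most abundant per kb, had a ratio of 0.849 (0.828 to 0.870), and 23 of the 28 were not called.

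**Figure D4:**
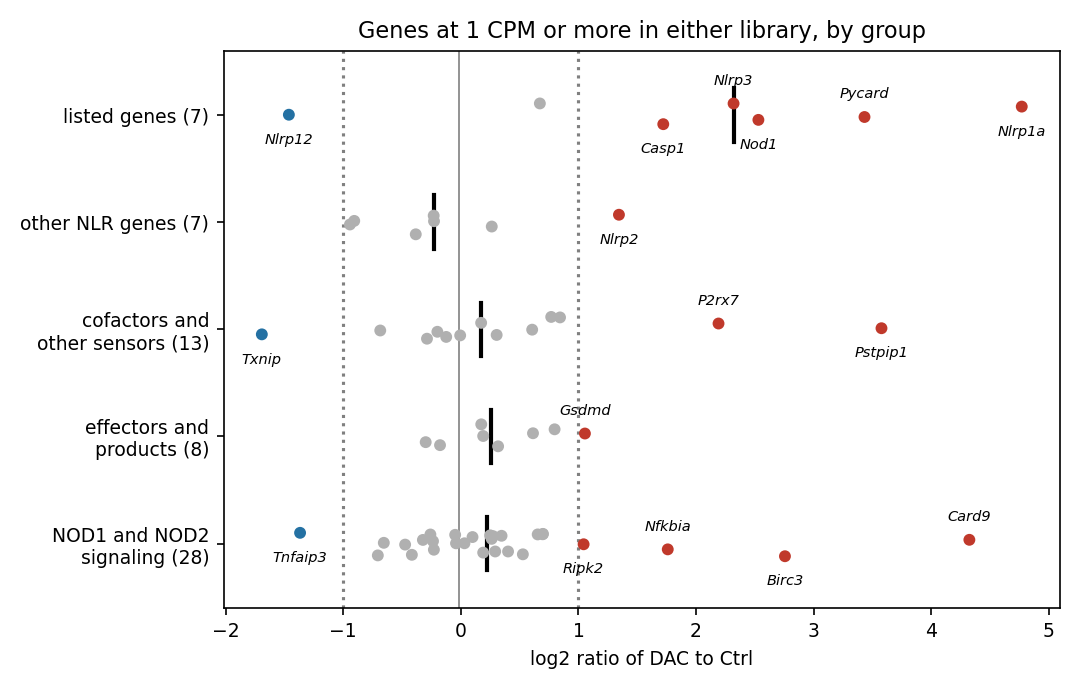
Log2 ratio of DAC to Ctrl (x axis) of genes at 1 CPM or more in either library, in the listed set and 4 related groups, with the number tested in parentheses. Red points were called higher, blue points lower and gray points neither. Black bars are group medians, the gray line is the median of all 13545 genes tested (-0.02), and dotted lines mark 2-fold. The medians of the related groups lie between -0.23 and 0.25, that of the 7 listed genes tested is 2.32, and 4 of these 7 were tested through the library where they were high.

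Macrophages and neutrophils carry many of these transcripts, so their markers were read beside them. Of 10 macrophage and monocyte markers, 6 had a row. Cd68 alone reached 1 CPM, with 809 counts in DAC and 470 in Ctrl, a ratio of 1.47. The other 5 summed to 1.46 CPM in DAC and 1.66 CPM in Ctrl, and both directions occurred among them. Ptprc, the leukocyte common antigen, had 0 counts in DAC and 3 in Ctrl, and Lyz2 had 17 and 31, while Fcer1g had 13 and 0, Fcgr3 had 3 and 0, and Cx3cr1 had 22 and 19. Of 8 neutrophil markers, 3 had a row, and they summed to 0.452 CPM in DAC and 0.187 CPM in Ctrl. Camp, an antimicrobial peptide gene of neutrophils, had 4 counts in DAC and 6 in Ctrl, S100a8 had 9 and 0, and Mpo had 4 and 0. Of 7 lymphocyte markers, 2 had a row: Cd4 had 13 counts in DAC and 4 in Ctrl, and Cd79a, a B-cell receptor chain, had 112 and 19 and was called higher. Cd79a was the only one of them tested, and it reached 1 CPM in DAC only, the class with 78.9% called higher. Of 9 markers of colon epithelium, 8 had a row, with a sum of 262 CPM in DAC and 77.7 CPM in Ctrl, or 144 and 77.5 CPM without Krt8. 4 of the 5 tested were called higher, beside 10.8% of all genes tested, and 2 of these 4, Krt8 and Krt19, reached 1 CPM in DAC only. The keratin gene Krt8 had 4445 counts in DAC and 5 in Ctrl, Krt20 had 1548 and 593, and Krt19 had 58 and 12. Krt18, the most abundant per kb, had 3579 counts in DAC and 1797 in Ctrl, and Cdh1, the E-cadherin gene, had 9 and 0. The 8 fibroblast and endothelial markers summed to 79.1 CPM in DAC and 61.8 CPM in Ctrl, led by Pdgfrb with 2420 and 1703 counts. The part of these cell identities in the values of the NLR and inflammasome genes was not tested.

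RefSeq start sites matched 7 of the 8 genes, with 10 stretches of 250 bases among them. These held 0 to 5 CG, except for the 12 of the outer Nod1 start, while the median over all 32851 stretches of this length was 6, with quartiles of 2 and 16. Casp1 had 1, Pycard and Nlrp1a 2, Nlrp3 3 and 4 at its start sites, the inner Nod1 start 4, and Nlrp12 5. Both Nlrp1b stretches, at 0, and that of Casp1 lay under the lower quartile, and those of Pycard and Nlrp1a lay at it. As many or fewer CG are held by 18.8% of all stretches for Casp1, by 29.0% for Pycard and Nlrp1a, by 37.8% and 44.4% for the Nlrp3 sites and by 49.6% for Nlrp12. The genes called higher thus ranged from 1 to 12, and the gene called lower had 5. 3 motifs were searched on both strands: TTCNNNGAA, the form bound by STAT factors, an interferon-response form of GAAA, any 2 bases and GAAA, and an NF-κB form of GGG, any 2 bases and TTTCC. The first was found once in Nlrp12 and once at the inner start of Nod1, and in 7.02% of all stretches. The others were found in 0 of the 10, and in 2.98% and 1.41% of all stretches. These are matches of letters only, and binding was not measured.

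**Figure D5:**
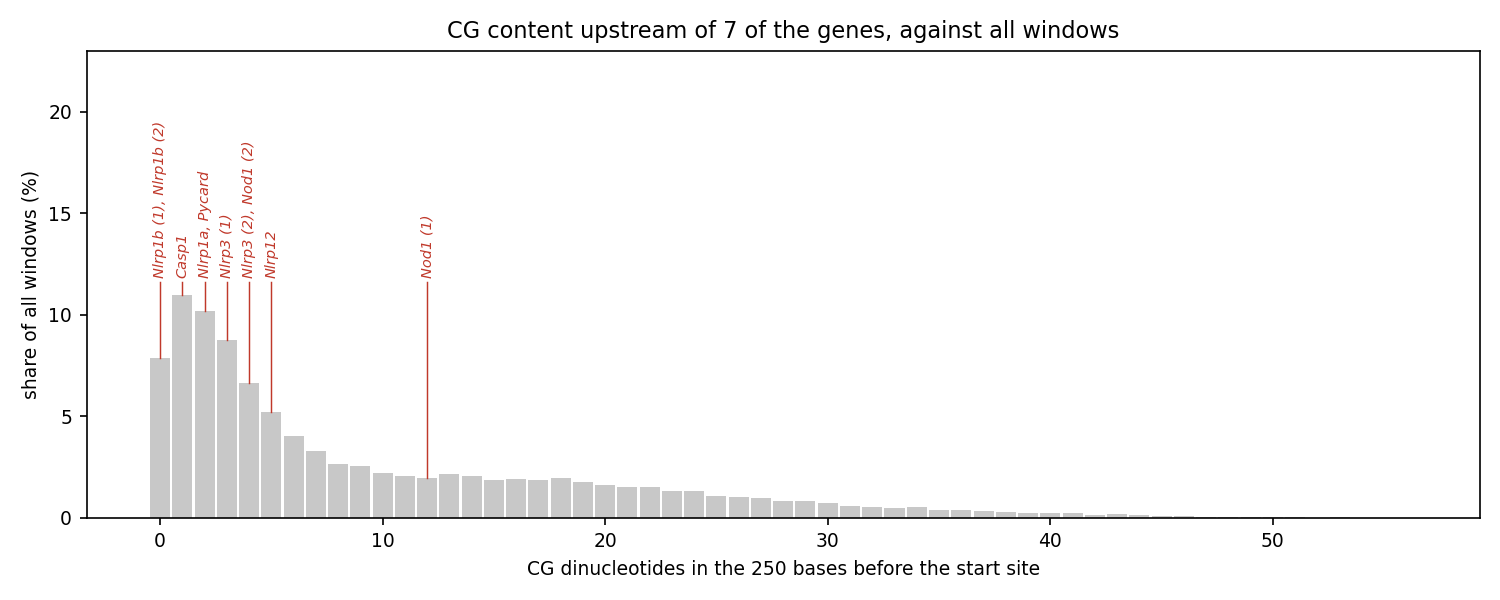
Number of CG dinucleotides in the 250 bases before each RefSeq start site (x axis) against the share of all 32851 stretches with that number (y axis, gray bars). Red lines mark the stretches of 7 of the genes, numbered where a gene has 2 start sites. Apart from the outer start of Nod1 at 12, they lie at 5 or fewer, and the median of all stretches is 6.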

How the data were processed

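RNA-seq of 1 DAC-treated and 1 control CT26 culture was analysed. The authors deposited whole-number counts per Ensembl gene without normalization. Tools listed in the processing notes of the submitters are DESeq, Cufflinks, StringTie 1.3.1c, STAR 2.5.3a, FastQC and Trim Galore, with build mm10. The study's methods describe TruSeq libraries of poly-A RNA, TopHat with Bowtie, and FPKM from CASAVA. Which route made the counts, and the strand setting, are not given in the sources used here. 1240 genes in DAC and 1176 in Ctrl had exactly 3 counts, against 650 and 596 with 4, and so 1 count may not equal 1 fragment. The counting intervals could then be too narrow. GENCODE M21 (GRCm38) matched 24122 of 24223 identifiers, and start sites came from RefSeq (GRCm38.p6).

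TMM factors (1.07 in DAC, 0.936 in Ctrl) came from edgeR 4.0.16 with R 4.3.3. Alignments used Biopython 1.88, ratios and intervals scipy 1.17.1, pandas 2.3.3 and numpy 2.4.6 under Python 3.11.15. The pipeline was tested on simulated data. The genes and related lists were chosen with earlier results of these data known. Named are every gene of the set, Gapdh, and from each list the most abundant gene per kb and the calls whose interval lay farthest from 1, up to 3 in each direction. Named after their values were seen were Nlrc4, Aim2, Casp4, Casp12, Il1a, Il1b, Il18, Ripk2, Cdh1, Ptprc, Lyz2, Fcer1g, Fcgr3, Cx3cr1, S100a8, Mpo, Cd4 and neighboring genes. Alternatives were other scalings (library totals, DESeq2 1.42.0 size factors, upper quartiles), centring on 20 bins of GC content, other filters, folds, intervals and prior counts, and thinning of the deeper library.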

Additional observations from a re-analysis of the deposited data

How the results depend on the processing

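In all 13 alternatives, Nlrp12 stayed below a ratio of 1 and the other 7 genes above it. The counts of 5 genes called higher and 1 lower were kept with library totals, DESeq2 and upper-quartile factors, GC centring, no filter, intervals from counts divided by 3, prior counts of 2 and 5, and thinning. At 5 CPM or more, 2 were higher (Nlrp3 and Casp1) and 0 lower, and the same numbers were left where the difference had to exceed 100 normalized counts, as both settings drop genes with few counts. At a fold of 4, or with the interval beyond 2-fold, 0 were lower, and Casp1 was no longer higher at a fold of 4. The log2 ratio of Nlrp1a was 4.77 against 3 Ctrl counts, 5.51 with a prior count of 2 and 4.23 with a prior count of 5, and that of Pycard ranged from 2.28 to 3.62. Library totals shifted all genes, whose median log2 ratio was 0.17 against -0.02 with TMM, and gave 458 lower genes in all against 716. Over all genes, the numbers called higher and lower were 2672 and 1239 without a filter, 684 and 450 at 5 CPM, 579 and 112 at a fold of 4, 977 and 403 with intervals beyond 2-fold, and 776 and 464 with a difference over 100, against 1468 and 716. No paired analysis was possible because each group has 1 library, and no replicate could be left out. Depth limits Nlrp10 and the Ctrl levels of Pycard and Nlrp1a, which rest on 3 counts or fewer.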
